A study of Homo sapiens with 4 samples.

Results

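This account is about 8 genes that regulate pre-mRNA splicing: the kinase genes CLK1, CLK2, CLK3 and CLK4, the kinase genes SRPK1 and SRPK2, and the splicing activator genes TRA2A and TRA2B. They were picked by gene symbol from the 63241 genes of the expression table. Each symbol matched a single Ensembl gene. The cells were 22Rv1, a prostate cancer line that the labels class as CRPC, castration-resistant prostate cancer. One group was exposed for 12 h to 40 nM of JMC45, a small molecule against CDK9 that the title calls a degrader, and the other to the DMSO vehicle, with 2 libraries in each group. The name D45 in the title and design text was read as this compound. All libraries came from this single line, and the labels do not say whether the libraries of a group came from separate cultures, so the p-values reflect only how far these libraries differ, and that spread may be technical.

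CLK and SRPK kinases phosphorylate serines in the arginine- and serine-rich (RS) stretches of SR proteins, the factors that mark exons for the spliceosome. SRPK1 and SRPK2 act largely in the cytoplasm, where phosphorylation lets SR proteins enter the nucleus, while the CLK kinases are nuclear and release SR proteins from nuclear speckles. TRA2A and TRA2B are RS-containing proteins that bind exonic enhancers and promote exon inclusion. Several of these genes adjust their own splicing: CLK1 and CLK4 transcripts can be held in the nucleus with introns retained, and the TRA2 genes carry poison exons whose inclusion leads to decay of the transcript. The values used here are sums over each gene's transcripts, so they do not separate such isoforms.

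The unit is TPM, a share of each library corrected for transcript length, so levels of different genes can be set side by side. TPM keeps no sequencing depth, and the depth of the libraries is unknown. Among luminal prostate markers all 9 had at least 1 TPM in every library, with summed values of 1362 and 1327 TPM in vehicle and 697.9 and 676.6 TPM in JMC45. Of 3 basal, 3 leukocyte and 3 endothelial markers none reached 1 TPM in all libraries, and their sums stayed at or below 0.36 TPM. Of 3 neuroendocrine markers SYP did (38.83 and 38.10 TPM in vehicle, 35.02 and 32.81 TPM in JMC45), and of 3 fibroblast markers COL1A1 did. The share of TPM from mitochondrially encoded genes was 20.1% to 20.4% in vehicle and 26.6% to 29.3% in JMC45, and the values without these genes are given below where they change a call.

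The 8 genes did not move as a block. CLK1 and CLK4 had much lower TPM after JMC45, CLK3, SRPK1, SRPK2 and TRA2B were lower to about the same degree as the general run of genes, and CLK2 and TRA2A were not called. All 8 passed the filter of a mean of at least 1 TPM over the 4 libraries. In limma on log2(TPM + 1), 6 of the 8 were lower at an adjusted p below 0.05 and none was higher, where the same test called 80.7% of the 14018 genes tested lower and 4.25% higher. The share of members called lower is thus close to the background and sets them apart from nothing. At an unadjusted p below 0.05 the counts were the same, 6 lower and 0 higher. The share of all tested genes at that threshold was not computed. The median change of the 8 genes was -1.20 on the log2 scale, and that of all tested genes was -1.10.

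**Figure D1:**
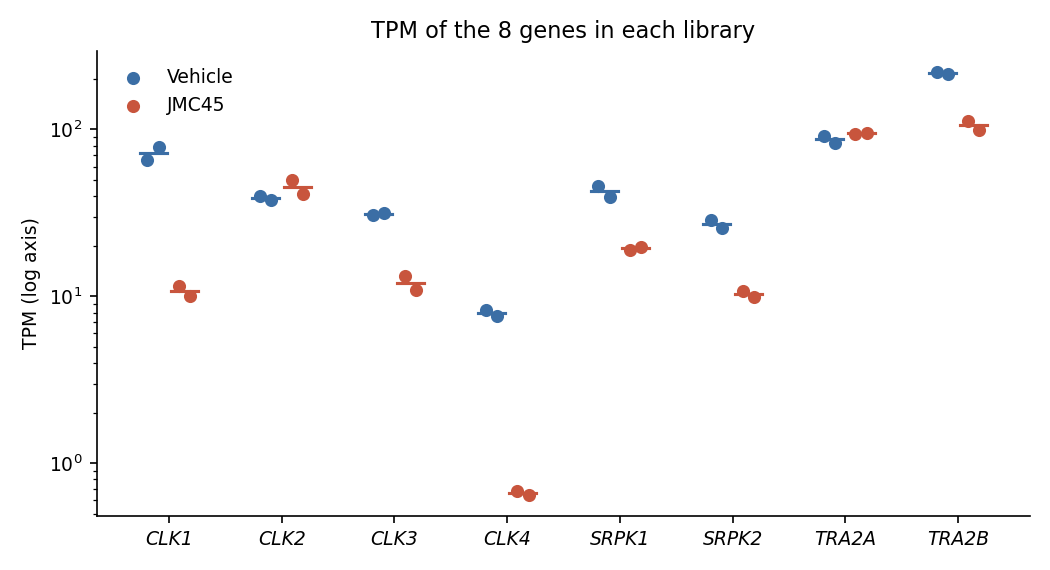
TPM of the 8 genes on a log axis, with 1 point per library and a line at the mean of each group (2 vehicle libraries in blue, 2 JMC45 libraries in red). CLK1 and CLK4 show the widest gaps between groups, whereas the points of CLK2 and TRA2A lie close together.

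In vehicle the order of mean TPM was TRA2B (218.3), TRA2A (87.3), CLK1 (72.3), SRPK1 (42.7), CLK2 (39.1), CLK3 (31.0), SRPK2 (27.2) and CLK4 (7.96). The libraries of SRPK1 and CLK2 overlapped, and all other neighbours in this order were apart in both libraries. In JMC45 TRA2B (106.1), TRA2A (94.6) and CLK2 (45.5) came first, followed by SRPK1 (19.4), CLK3 (12.0), CLK1 (10.8), SRPK2 (10.3) and CLK4 (0.665). There CLK3 overlapped with CLK1, and CLK1 with SRPK2. CLK2 thus moved from place 5 to place 3 and CLK1 from place 3 to place 6.

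CLK1 (ENSG00000013441) encodes a dual-specificity kinase that phosphorylates SR proteins and is the best-studied member of the CLK family. It measured 65.79 and 78.77 TPM in the vehicle libraries and 11.55 and 10.10 TPM in the JMC45 libraries. Both JMC45 libraries lay far below both vehicle libraries. The group means were 72.3 ± 9.18 and 10.8 ± 1.03 TPM (SD, n = 2), a 6.68-fold lower mean, and the log2 change was -2.63 (SE 0.12, 95% interval -2.92 to -2.34, limma adjusted p = 1.26e-05). Of all tested genes, 4.27% had a lower change.

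CLK4 (ENSG00000113240) encodes a closely related kinase of the same family and was the least abundant of the 8 in vehicle. It measured 8.33 and 7.58 TPM in vehicle and 0.68 and 0.65 TPM in JMC45. The groups were far apart, and the JMC45 values were below 1 TPM, where a pseudocount weighs most. The means were 7.96 ± 0.53 and 0.665 ± 0.021 TPM, an 11.96-fold lower mean. The log2 change was -2.43 (SE 0.14, 95% interval -2.76 to -2.09, limma adjusted p = 2.09e-05), and -3.40 at a pseudocount of 0.1. CLK4 was therefore the gene with the largest fold decrease of mean TPM among the 8, although CLK1 had the larger change on the log2(TPM + 1) scale.

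CLK2 (ENSG00000176444), a nuclear kinase that acts on SR proteins and has also been linked to liver metabolism, had no call. It measured 40.16 and 38.04 TPM in vehicle and 49.78 and 41.12 TPM in JMC45. Both JMC45 libraries lay above both vehicle libraries, the second by little. The means were 39.1 ± 1.5 and 45.5 ± 6.12 TPM, with a log2 change of 0.21 (SE 0.11, 95% interval -0.06 to 0.47, limma adjusted p = 0.114). The difference did not pass, and it did so without JMC45 replicate 2 (0.34, limma adjusted p = 0.0253) and on TPM recomputed without the mitochondrially encoded genes (0.35, limma adjusted p = 0.0143). With the summed TPM of those genes held equal in all libraries the value was -0.24 (limma adjusted p = 0.146). Of all tested genes, 94.3% had a lower change than CLK2.

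CLK3 (ENSG00000179335), a CLK kinase abundant in testis, measured 30.54 and 31.42 TPM in vehicle and 13.23 and 10.86 TPM in JMC45. Its groups did not overlap. The means were 31.0 ± 0.622 and 12.0 ± 1.68 TPM, and the log2 change was -1.30 (SE 0.11, limma adjusted p = 9.21e-05). This lay near the middle of all tested genes, of which 41.4% had a lower change.

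The stretches upstream of CLK1, CLK4 and CLK2 are shown because CLK1 and CLK4 had the largest decreases of the 8 genes and CLK2 was not called. They are the 150 bases before a RefSeq transcript start (GRCh38.p14, minus strand for all), at chr2:200864659-200864808 for CLK1, chr5:178627051-178627200 for CLK4 and chr1:155273505-155273654 for CLK2. Capitals mark TGACG or its reverse complement CGTCA, a part of the cyclic AMP response element.
CLK1: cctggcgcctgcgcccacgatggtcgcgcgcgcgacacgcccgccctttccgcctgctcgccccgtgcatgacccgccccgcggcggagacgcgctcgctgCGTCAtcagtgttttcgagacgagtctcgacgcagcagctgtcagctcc
CLK4: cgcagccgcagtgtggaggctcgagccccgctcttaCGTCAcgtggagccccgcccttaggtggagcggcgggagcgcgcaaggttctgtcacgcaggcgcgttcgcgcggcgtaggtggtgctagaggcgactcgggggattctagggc
CLK2: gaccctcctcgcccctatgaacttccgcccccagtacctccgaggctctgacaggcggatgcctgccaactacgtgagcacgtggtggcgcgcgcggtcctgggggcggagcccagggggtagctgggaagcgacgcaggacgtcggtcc

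The first base of the match lay 49 bases before the start used in CLK1 and 114 bases before that in CLK4, and the CLK2 stretch held none. From another RefSeq start of CLK1 the same match lay 146 bases upstream. RefSeq gave 12 start windows for 7 of the 8 genes, and TRA2A, the other gene without a call, had no window. In their 250 upstream bases 5 of the 7 genes (CLK1, CLK3, CLK4, SRPK2 and TRA2B) had this string in at least 1 window. SRPK1, which fell, and CLK2 lacked the string. It is a common string: 21.2% of 35116 windows and 36.9% of 9983 tested genes with a window held it on either strand. The median log2 change of tested genes with it was -1.20, against -1.11 for those without it. All 7 genes held a GC box (GGGCGG on either strand, in 42.6% of windows and 75.3% of tested genes with a window), CLK2 and CLK4 held the E-box CACGTG (6.35% of windows and 11.5% of genes), and none held TATAAA (10.7% of windows and 7.72% of genes). Only CLK3 held the ETS core CCGGAA (14.5% of windows and 31.5% of genes) and CCAAT (32.0% of windows and 42.3% of genes), each on either strand. These motifs were chosen after the sequences had been seen, and the matches describe the letters in these windows.

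Both SRPK genes fell. SRPK1 (ENSG00000096063), the main cytoplasmic SR protein kinase in many cells, measured 45.74 and 39.58 TPM in vehicle and 18.97 and 19.89 TPM in JMC45. Its groups did not overlap, and it fell by 1.09 on the log2 scale (SE 0.10, limma adjusted p = 0.0001). SRPK2 (ENSG00000135250), its paralog, measured 28.72 and 25.63 TPM in vehicle and 10.75 and 9.88 TPM in JMC45. Its groups did not overlap either, and it fell by 1.32 on that scale (SE 0.10, limma adjusted p = 5.9e-05). The mean of SRPK1 was 2.20-fold lower and that of SRPK2 2.64-fold lower. Both lay near the middle of all tested genes, of which 50.5% had a lower change than SRPK1 and 40.6% a lower change than SRPK2.

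Of the TRA2 pair, TRA2B fell and TRA2A had no call. TRA2B (ENSG00000136527), the more abundant of the pair in vehicle, measured 221.33 and 215.18 TPM there and 113.15 and 99.04 TPM in JMC45. Its groups did not overlap, the mean was 2.06-fold lower, and the log2 change was -1.04 (SE 0.08, 95% interval -1.23 to -0.84, limma adjusted p = 5.8e-05). TRA2A (ENSG00000164548) measured 91.62 and 82.91 TPM in vehicle and 94.59 and 94.61 TPM in JMC45. Both JMC45 libraries lay above both vehicle libraries, but the first vehicle library lay close to them. The log2 change of 0.12 (SE 0.07, 95% interval -0.06 to 0.30, limma adjusted p = 0.174) did not pass, while it passed on TPM recomputed without the mitochondrially encoded genes (0.26, limma adjusted p = 0.017). With the mitochondrially encoded total held equal TRA2A was called lower (-0.34, limma adjusted p = 0.0184). Of all tested genes, 92.8% had a lower change than TRA2A and 53.0% a lower change than TRA2B.

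**Figure D2:**
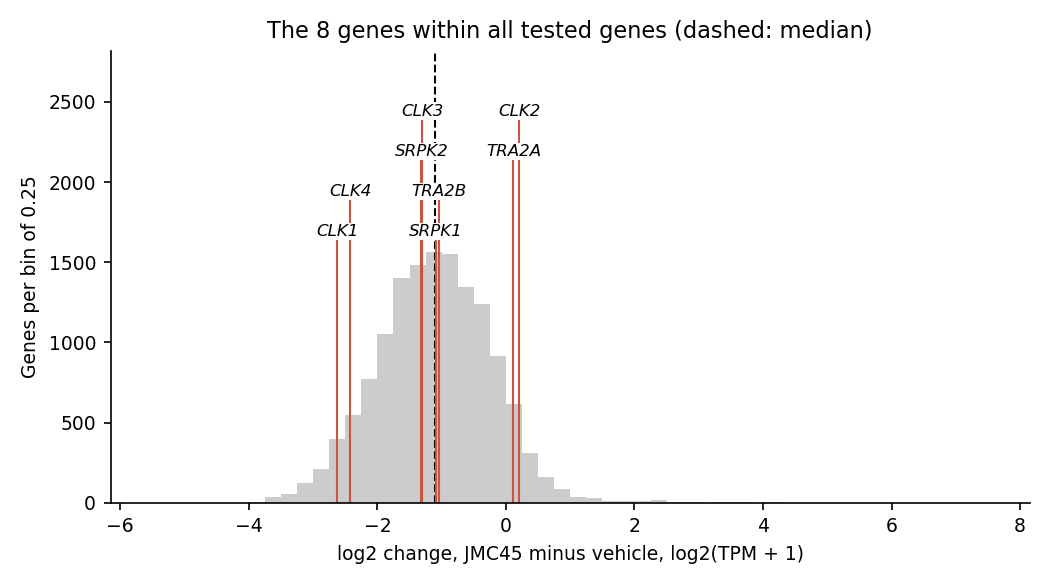
Histogram of the log2 change of all 14018 tested genes in bins of 0.25, with the median of -1.10 as a dashed line and the 8 genes as red lines. CLK1 and CLK4 lie in the lower tail, CLK2 and TRA2A in the upper part, and the other 4 genes near the middle.

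Because most genes took a smaller share of the library, the calls depend on how the libraries are scaled. Median-of-ratios scaling, which sets the typical gene equal between libraries, moved the median of all genes to -0.02 and called 35.5% of them lower and 34.9% higher. Of the 8 genes, 2 were then lower and 3 higher. CLK1 and CLK4 stayed lower, at -1.33 (limma adjusted p = 0.000264) and -1.53 (limma adjusted p = 8.93e-05). CLK2 and TRA2A were higher, at 1.53 (limma adjusted p = 6.63e-05) and 1.45 (limma adjusted p = 5.63e-05), and so was TRA2B, at 0.31 (limma adjusted p = 0.0316). Quantile normalization, another rescaling, instead called TRA2B lower (-0.62, limma adjusted p = 0.000816), so the direction for TRA2B depends on the rescaling. CLK3 (-0.02), SRPK1 (0.21) and SRPK2 (-0.04) had no call. No spike-in was analysed here, so neither scaling shows which transcripts changed in amount per cell.

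**Figure D3:**
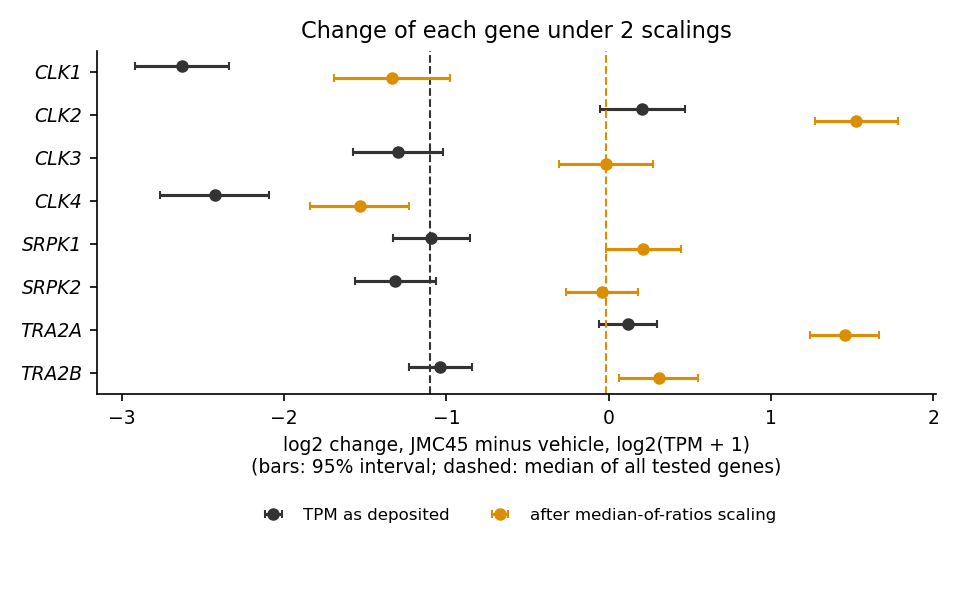
Log2 change of each gene, JMC45 minus vehicle, with its 95% interval, on TPM as deposited (black) and after median-of-ratios scaling (orange). The dashed lines are the medians of all tested genes, -1.10 and -0.02. CLK1 and CLK4 lie below both, and CLK2 and TRA2A above both.

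A ratio of 2 genes within a library does not depend on the scaling. For each of 5 pairs the 2 vehicle libraries and the 2 JMC45 libraries did not overlap. The share of pairs without overlap among all genes was not computed, so this count does not set the 5 apart. The two-sided exact permutation test gave p = 0.33 for each pair, also after adjustment over the 5. This is the smallest value that 2 libraries against 2 allow. The CLK1 to CLK2 ratio turned over, from 1.64 and 2.07 in vehicle to 0.232 and 0.246 in JMC45, a 7.72-fold shift. There was more CLK1 than CLK2 in both vehicle libraries and less in both JMC45 libraries. The CLK2 to CLK3 ratio went from 1.32 and 1.21 to 3.76 and 3.79, a 2.99-fold shift. The CLK1 to CLK4 ratio went from 7.90 and 10.4 to 17.0 and 15.5. This was a 1.79-fold shift on TPM, and with a pseudocount of 1 its log2 difference of 0.84 became -0.20. The TRA2A to TRA2B ratio went from 0.414 and 0.385 to 0.836 and 0.955, a 2.24-fold shift towards equal levels. The smallest shift was that of SRPK1 to SRPK2, from 1.59 and 1.54 to 1.77 and 2.01, or 1.20-fold.

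The make-up of each family shows the same values as shares. The summed TPM of the 4 CLK genes was 144.8 and 155.8 in vehicle and 75.2 and 62.7 in JMC45. CLK1 made up 45.4% and 50.6% of it in vehicle and 15.4% and 16.1% in JMC45. CLK2 made up 27.7% and 24.4% in vehicle and 66.2% and 65.6% in JMC45, so the leading CLK transcript was CLK1 in vehicle and CLK2 in JMC45. CLK3 held 21.1% and 20.2% in vehicle and 17.6% and 17.3% in JMC45, and CLK4 held 5.75% and 4.87%, then 0.904% and 1.04%. Of the TRA2 total, TRA2A held 29.3% and 27.8% in vehicle and 45.5% and 48.9% in JMC45. SRPK1 held 61.4% and 60.7% of the SRPK total in vehicle and 63.8% and 66.8% in JMC45.

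**Figure D4:**
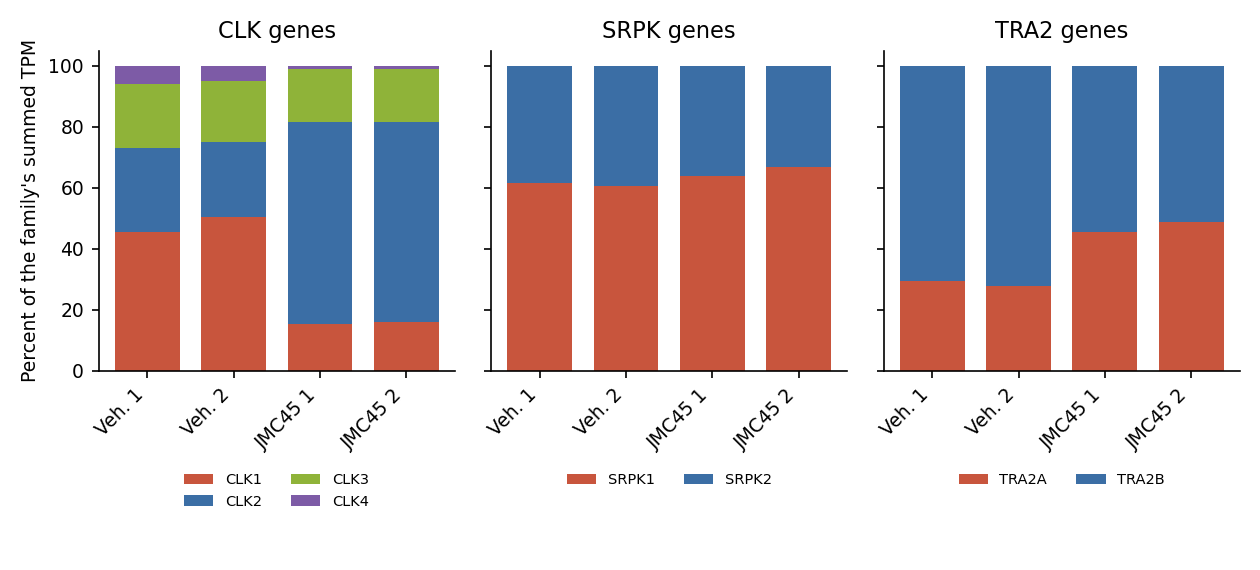
Percent of the summed TPM of each family held by each gene, with 1 stacked bar per library for the CLK, SRPK and TRA2 genes. CLK2 takes 65.6% to 66.2% of the CLK total in the JMC45 libraries against 24.4% to 27.7% in vehicle, and the SRPK bars differ least.

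The substrates and partners of these kinases were read from the same fit, and each list is described by its counts. Of the 12 SR protein genes, the main substrates of CLK and SRPK, all 12 were lower, beside 80.7% of all tested genes. Their median log2 change was -1.72. After median-of-ratios scaling 7 were lower and 3 higher, beside 35.5% and 34.9% of all genes. SRSF3, an SR protein that acts in splicing and mRNA export, fell by 3.99 on the log2 scale, from 484.33 and 423.27 TPM to 27.47 and 27.63 TPM. SRSF7 (-2.44), SRSF8 (-2.44) and SRSF5 (-2.42) followed. The summed TPM of the 6 kinase genes was 219.3 and 221.0 in vehicle and 105.0 and 92.5 in JMC45, while that of the SR protein genes was 2309 and 2110 in vehicle and 756.6 and 722.2 in JMC45. Per 100 TPM of SR protein genes there were 9.50 and 10.5 TPM of CLK and SRPK genes in vehicle and 13.9 and 12.8 TPM in JMC45. Without CLK2 the other 5 kinase genes had 7.76 and 8.67 TPM per 100 in vehicle and 7.29 and 7.11 TPM in JMC45. Both comparisons, with and without CLK2, were chosen after seeing the data. For both differences the two-sided exact permutation p was 0.33, the smallest that this design allows.

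Of 11 genes of related kinases, 9 were tested, since DYRK3 was below the filter and HIPK4 was listed at 0. Of these, 7 were lower and 2 had no call (HIPK2 and SRPK3), and their median was -1.35, where 80.7% of all tested genes were lower. Median-of-ratios scaling gave 4 lower and 3 higher, where it called 35.5% of all genes lower and 34.9% higher. DYRK1B (-2.32), DYRK2 (-2.09), PRPF4B (-1.82), which phosphorylates spliceosome components, and DYRK1A (-1.75) had the largest changes. SRPK3, the muscle paralog of SRPK1 and SRPK2, was at 1.71 and 2.05 TPM in vehicle and 1.75 and 1.09 TPM in JMC45. Of 23 other RS proteins and partners, 21 were lower and 2 had no call, beside 80.7% lower among all genes, and their median of -1.08 was close to the -1.10 of all tested genes. Median-of-ratios scaling gave 6 lower and 10 higher, beside 35.5% and 34.9% of all genes tested. RBMX, a binding partner of TRA2B (-2.36), U2AF1, the small subunit of the factor that reads the 3′ splice site (-2.12), SRRM1 (-2.08) and SREK1 (-1.91) led them. CLASRP, a gene named for its protein's association with CLK4, was without a call (23.35 and 19.29 TPM in vehicle, 26.94 and 19.71 TPM in JMC45), and so was NKTR.

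Of 12 genes for the import, dephosphorylation and chaperoning of this system, 11 were lower, against a background of 80.7%, and their median of -1.01 lay above the -1.10 of all tested genes. Median-of-ratios scaling gave 4 lower and 6 higher, against 35.5% and 34.9%. PPP1R8, a nuclear inhibitor of the phosphatase PP1, went from 46.59 and 45.89 TPM to 4.79 and 4.60 TPM (log2 change -3.05). The PP1 catalytic subunit PPP1CC fell by 2.49 on the log2 scale, while PPP1CA and PPP1CB fell by 0.71 and 0.57. SAFB (-2.20) and TNPO3, the import receptor of phosphorylated SR proteins (-1.82), were lower too. HSP90AA1, a chaperone gene, had no call.

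**Figure D5:**
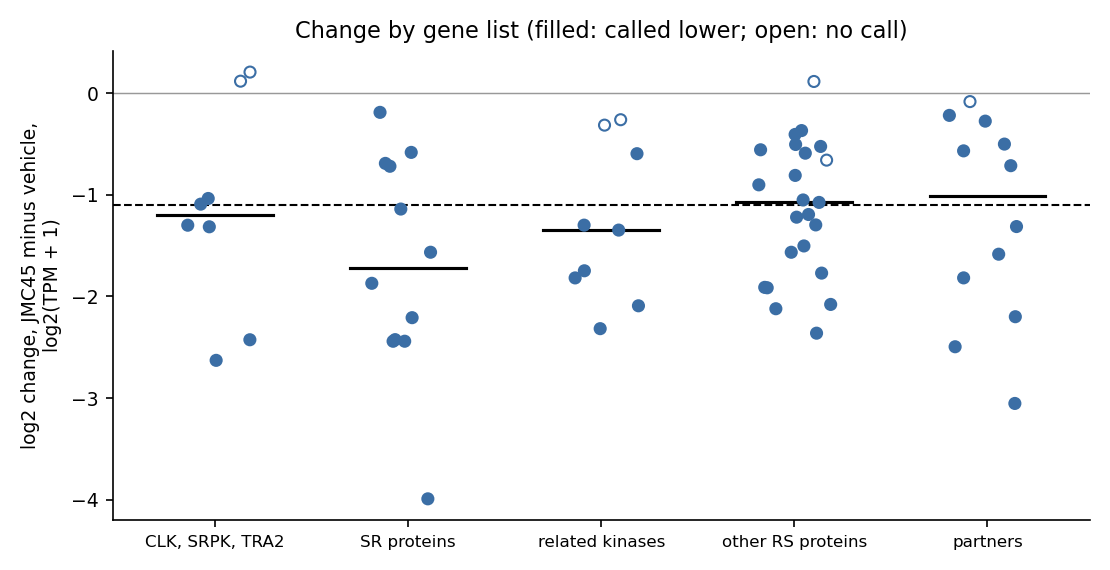
Log2 change of each tested gene by list (filled points called lower, open points without a call), with each list's median as a bar and the median of all tested genes (-1.10) as a dashed line. The SR protein genes have the lowest median, -1.72, and the CLK, SRPK and TRA2 genes span -2.63 to 0.21.

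The gene most like each member over the 4 libraries was found by the smallest Euclidean distance between centred log2(TPM + 1) values. It was POLR1C for CLK1 (distance 0.08), TRABD for CLK2 (0.04), CELSR1 for CLK3 (0.04), POGK for CLK4 (0.02), RAP1GDS1 for SRPK1 (0.02), ZNF429 for SRPK2 (0.01), VWA8 for TRA2A (0.02) and SLC66A2 for TRA2B (0.02). Such neighbours were common: 8.51% of tested genes lay within 0.2 of SRPK1 and 6.86% within 0.2 of TRA2B, whereas 0.598% lay that close to CLK1 and 1.98% to CLK2. With 4 libraries in 2 groups the distance mostly reads the size of the group difference.

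Some of these values can include reads of other genes, since the sources used here do not say whether the quantification used strand. Among protein-coding genes in GENCODE 29, EDC3 shares 701 exonic bases with CLK3 on the opposite strand, LHFPL5 shares 265 with SRPK1 and KMT2E shares 98 with SRPK2. EDC3 measured 20.64 and 20.24 TPM in vehicle and 8.84 and 9.20 TPM in JMC45. The non-coding AC100835.2 shares 479 with CLK3 and measured at most 2.07 TPM. HCN3, opposite CLK2, shares no exonic base with it. The named pseudogenes CLK2P1, CLK3P2 and SRPK2P were listed at 0 in all 4 libraries.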

How the data were processed

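Poly(A)-selected RNA of 4 libraries was sequenced from a stranded kit, per the labels' protocols. The authors deposited TPM per Ensembl gene for each library, per the file headers. Tools listed in the submitters' processing notes are StringTie, HISAT2 and fastp, with no version. Genome build and annotation: not given in the sources used here. Control columns were taken as vehicle by name and number. Of 63241 genes, 62666 matched a symbol, and 50 lines without values were left out.

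The 14018 genes with a mean of at least 1 TPM were tested as log2(TPM + 1), a scale that understates changes of low genes, with limma 3.58.1 (R 4.3.3), two-sided, with trend on and no replicate block. P-values were adjusted by Benjamini-Hochberg over all tested genes, with a threshold of 0.05. "Fell", "lower" and "higher" for a fold mean this call. The test was tested on simulated data, where it found large changes and missed most small ones. Far fewer genes were changed there than were called in the data, so the share missed need not carry over. Alternatives were a pseudocount of 0.1, no filter, a mean of at least 5 TPM, median-of-ratios scaling, quantile normalization, both handlings of mitochondrially encoded genes, no trend, the replicate block and each library left out. Leaving a library out assumes that the lone one varies like the other group.

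The members and lists were chosen with earlier results of these data known. Named were all members, up to 4 called genes with the largest change per list and each member's nearest gene. Other genes were named after their values were seen, as were the motifs. Python 3.11.15 with pandas 2.3.3 and matplotlib 3.10.9 made summaries and figures. Sequences are RefSeq's.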

Additional observations from a re-analysis of the deposited data

How the results depend on the processing

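CLK1 and CLK4 had a negative log2 change under each alternative that tested them (-3.07 to -1.33 for CLK1 and -3.40 to -1.24 for CLK4). Both were called lower in each of these that kept all libraries. CLK4 was not tested at a mean of at least 5 TPM, which left 5 members lower, beside 7554 of the 9110 genes tested there. Median-of-ratios scaling gave 2 members lower and 3 higher, and quantile normalization 3 lower and 2 higher. TRA2B was called higher by the former and lower by the latter. TPM without mitochondrially encoded genes gave 6 members lower and 2 higher, beside 10695 and 842 of the 14003 genes tested. Lower calls there were 11 SR protein genes, 7 related kinases, 19 other RS protein genes and 9 partners. Leaving out each library kept the sign of every member's change. Signs turned for TRA2B (0.31) and SRPK1 (0.21) after median-of-ratios scaling, and for CLK2 (-0.24) and TRA2A (-0.34) when the mitochondrially encoded total was set equal. The log2 difference of CLK1 to CLK4 turned to -0.20 with a pseudocount of 1. The difference in kinase TPM per 100 TPM of SR protein genes was 3.35 and turned to -1.01 without CLK2. With each library left out it was 2.82 to 3.89 with CLK2 included. Both versions were chosen after seeing the data. Over all 14018 genes tested, median-of-ratios scaling called 4981 lower and 4888 higher, and quantile normalization 4603 and 4716. The equal mitochondrially encoded total gave 12685 lower and 181 higher, with 7 members lower and 0 higher. Lower calls under median-of-ratios scaling were 7 SR protein genes, 4 related kinases, 6 other RS protein genes and 4 partners. Under quantile normalization they were 8 SR protein genes, 4 related kinases, 11 other RS protein genes and 6 partners. The cause was not tested. With the replicate block 6 members were lower and 0 higher, beside 11380 and 613 of all tested genes. Across genes, deviations of same-numbered libraries correlated at -0.0471, so no deviation shared by number was seen. This does not tell whether such libraries were cultured as pairs. TPM keeps no depth, so the counting error of CLK4 in JMC45 is unknown.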

Other observations

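The annotated transcripts of the members differ in kind. GENCODE 29 lists 8 retained-intron transcripts among 15 for CLK1, 7 of 15 for CLK4, 8 of 27 for CLK3 and 0 of 7 for CLK2. TRA2B has 8 of 16 and TRA2A 4 of 12, while SRPK1 has 4 of 13 and SRPK2 2 of 15. Of tested protein-coding genes, 5.93% had at least 7 such transcripts, with a median log2 change of -0.90, and 41.0% had 0, with a median of -1.23. CLK1, CLK4, CLK3 and TRA2B, all with at least 7, each lay below the median of genes with like annotation. The 10th to 90th percentile of that class ran from -1.93 to 0.04, a range that held CLK3 and TRA2B but not CLK1 and CLK4. CLK1 and CLK4 also lay below the 10th percentile of genes with 0 such transcripts (-2.39) and of those with 1 to 6 (-2.22). CLK2 lay above the median of genes with none. Genes with 1 to 6 had a median of -1.10, with TRA2A (0.12) above it, SRPK1 (-1.09) close to it and SRPK2 (-1.32) below it. A link between this annotation and the changes was not tested. The TPM of the separate transcripts was not analysed here.

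The 8 genes were spread over all quartiles of gene span. CLK2, CLK4, TRA2A and TRA2B all lie in the second quartile of span among tested protein-coding genes (13327 to 32759 bases), where the median log2 change was -1.19. CLK1 lies in the shortest quartile (median -1.14), CLK3 in the third (median -1.21), and SRPK1 and SRPK2 in the longest (median -1.02). A link between span and the changes was not tested.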
